A study of Mus musculus with 3 samples.

Results

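The data describe 10 genes through which myeloid cells are known to restrain T cells, in Ly6G+ myeloid cells of mouse bone marrow. They are, by symbol, the arginases Arg1 and Arg2, the inducible nitric oxide synthase Nos2, the PD-1 ligands Cd274 (PD-L1) and Pdcd1lg2 (PD-L2), the cytokines Il10 and Tgfb1, and the surface receptors Cd84, Pirb and Vsir (VISTA). Of these 10, 9 had a row among the 16072 named genes, and Arg1 was not analysed here. All mice were C57BL/6 and were 6 to 10 weeks old when used. Each carried a subcutaneous B16.F10 melanoma, placed 1 week ahead of an intramuscular adeno-associated virus vector, and cells were collected 3 weeks after the vector. Labels name the cells Ly6G+, and the study's text also calls them Gr-1+. The vector AAV-IL27 carries both subunits of murine IL-27, joined by a linker, under the ubiquitous CAG promoter, and AAV-ctrl is the empty vector. There were 3 libraries, AAV-ctrl 1, AAV-ctrl 2 and 1 labelled AAV-IL27 2, called AAV-IL27 here, while the submitters' design text counts 4 mice. Wherever 3 values are given together, they stand in that order of libraries. Because AAV-IL27 had 1 library, no test was run and no p-value is given.

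Neutrophils and their immature forms in the marrow can block T cells in tumour-bearing hosts, and cells that do so are called myeloid-derived suppressor cells. They are known to consume arginine through arginases, to make nitric oxide, to release IL-10 and TGF-beta, and to display ligands for inhibitory receptors such as PD-1 on T cells. IL-27 signals through JAK kinases and STAT transcription factors, and IRF1 is known to drive PD-L1 transcription downstream of interferons.

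Expression is given as FPKM, the number of sequenced fragments scaled to transcript length and to library depth, so levels can be compared between genes per length. The difference between groups is log2(FPKM + 1) of the AAV-IL27 library minus the mean of those of AAV-ctrl. On this scale genes with low values show smaller changes than their FPKM ratio. The depth worked out from whole-fragment steps was 19100000 to 19400000 fragments per library. Ly6g, the gene of the sort label, was at 711.76, 766.11 and 586.29 FPKM, S100a9 was the most abundant neutrophil marker, and none of 14 neutrophil markers differed from both AAV-ctrl libraries by 1 log2 unit. Transcripts of other marrow cells were present and were lower in the AAV-IL27 library, among them 12 of 14 macrophage markers, 12 of 12 erythroid markers and 5 of 5 B cell markers that passed the filter on low values. The same held for 3 of 6 megakaryocyte markers, 1 of 6 of eosinophils, basophils and mast cells, 0 of 8 of monocytes and 0 of 3 of T and NK cells. In bulk RNA, fewer cells of a type and less RNA per cell cannot be told apart.

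On the log2 scale the 2 PD-1 ligands were the members that differed most between the groups. Cd274 was 2.88-fold the AAV-ctrl mean and Pdcd1lg2 was 4.07-fold, whereas Pirb, Vsir, Cd84, Arg2 and Tgfb1 lay between 92.7% and 114% of it. Nos2 and Il10 were near the limit of detection in every library. Cd274 and Pdcd1lg2 lie next to each other on chromosome 19 (GRCm38, GENCODE M21), Cd274 from 29367455 to 29388095 and Pdcd1lg2 from 29410919 to 29471161, both on the plus strand, with 22823 bases between them. The sequences around their annotated starts are shown because these neighbours were both higher in the AAV-IL27 library. They are taken from RefSeq on GRCm38.p6, plus strand, read 5′ to 3′, at chr19:29367188-29367487 for Cd274 and chr19:29410669-29410968 for Pdcd1lg2. Capitals mark the 50 bases from the annotated start onwards, and lower case marks the 250 bases before it.
Cd274: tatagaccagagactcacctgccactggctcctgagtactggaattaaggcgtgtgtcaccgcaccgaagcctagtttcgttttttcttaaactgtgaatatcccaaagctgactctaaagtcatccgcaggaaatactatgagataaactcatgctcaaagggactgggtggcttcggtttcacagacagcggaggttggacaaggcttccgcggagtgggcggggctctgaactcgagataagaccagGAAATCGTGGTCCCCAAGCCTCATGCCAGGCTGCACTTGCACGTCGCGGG
Pdcd1lg2: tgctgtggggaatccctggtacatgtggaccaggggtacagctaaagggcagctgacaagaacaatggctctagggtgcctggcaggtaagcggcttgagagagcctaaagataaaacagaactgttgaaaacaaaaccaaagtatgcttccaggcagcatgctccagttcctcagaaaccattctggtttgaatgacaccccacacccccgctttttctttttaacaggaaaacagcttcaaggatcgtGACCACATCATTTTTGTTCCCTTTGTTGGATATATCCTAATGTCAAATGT

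Such a window was held for 6 of the 10 members, with Arg1, Arg2, Nos2 and Il10 not among them. Each of the 6 was searched on both strands for TTCNNNGAA, the core of a STAT binding site, and for GAAA followed by any 2 bases and a second GAAA, the core of an interferon response element. A sequence can hold both, and such overlap was not counted apart. Neither motif occurs in any of the 6 windows, and over all 32851 promoter windows the STAT core occurs in 8.30% and the interferon core in 3.44%. The search says only that these letters are not in these windows.

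Cd274 encodes PD-L1, the widely expressed ligand that binds PD-1 on T cells. It was at 5.44 FPKM in AAV-ctrl 1, 5.62 FPKM in AAV-ctrl 2 and 15.92 FPKM in AAV-IL27. Both AAV-ctrl values were close to each other and the AAV-IL27 value lay above both. Against an AAV-ctrl mean of 5.53 ± 0.127 FPKM (SD, n = 2), the log2 difference was 1.37, and it was 1.39 against AAV-ctrl 1 and 1.35 against AAV-ctrl 2. The AAV-ctrl libraries differed from each other by 0.04 log2 units in Cd274, against a median of 0.087 over all genes tested. In estimated fragments, Cd274 had 373 and 387 in the AAV-ctrl libraries and 1080 in AAV-IL27. Their exact 95% Poisson intervals, 336.1 to 412.8, 349.4 to 427.5 and 1016.5 to 1146.4, cover counting error only and do not overlap between the groups.

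A gene was counted as higher or lower when it lay at least 1 log2 unit (2-fold on the scale of FPKM + 1) above or below each AAV-ctrl library, among the 9130 genes with a mean of at least 1 FPKM. Of the 6 members that passed this filter, 1 was higher, Cd274, against 0.307% of all genes tested, and 0 were lower, against 2.32%. The members that did not pass were Pdcd1lg2, Il10 and Nos2. By the distance above the nearer AAV-ctrl library, Cd274 stood at rank 15 of the 9130 genes. Among the 1885 genes within 1.5-fold of its mean level, 4 had a log2 difference at least as high, Cd274 included.

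Pdcd1lg2 encodes PD-L2, the other ligand of PD-1, known mainly from dendritic cells and macrophages. It was at 0.25 FPKM in AAV-ctrl 1, 0.36 FPKM in AAV-ctrl 2 and 1.24 FPKM in AAV-IL27. As for Cd274, the AAV-IL27 value lay above both AAV-ctrl values. With a mean of 0.617 FPKM over the libraries, Pdcd1lg2 did not pass the filter and is not in the counts above. Its log2 difference was 0.78, and the AAV-ctrl libraries differed by 0.12. The values correspond to an estimated 8, 11 and 37 fragments, with 95% Poisson limits of 3.5 and 15.8 for AAV-ctrl 1, 5.5 and 19.7 for AAV-ctrl 2, and 26.1 and 51.0 for AAV-IL27. The AAV-IL27 interval lay above both others. Among 1244 genes within 1.5-fold of its mean level, 8 (0.643%) had a log2 difference at least as high, Pdcd1lg2 included. In each library Pdcd1lg2 was below Cd274 on the FPKM scale.

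**Figure D1:**
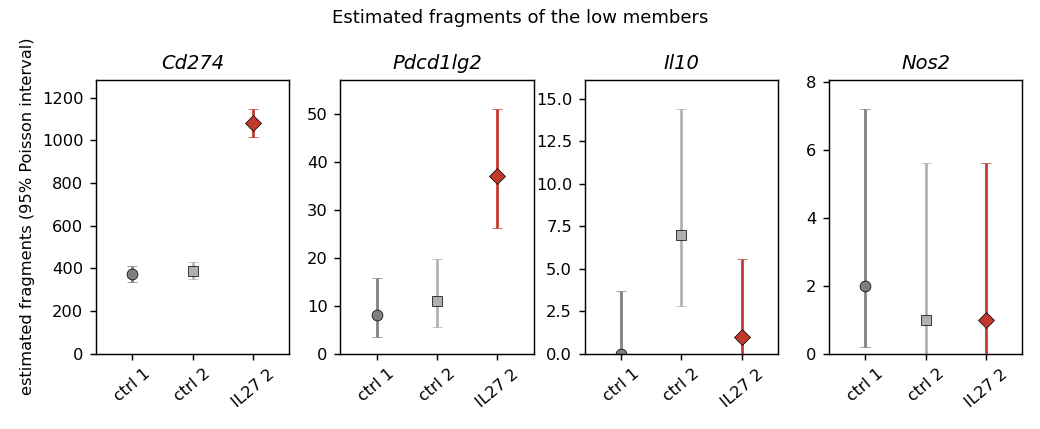
Estimated fragments (vertical axis, own linear scale in each panel) of Cd274, Pdcd1lg2, Il10 and Nos2 in AAV-ctrl 1, AAV-ctrl 2 and AAV-IL27, with bars for exact 95% Poisson intervals that cover counting error only. The AAV-IL27 point of Cd274 (1080) and of Pdcd1lg2 (37) has an interval above those of both AAV-ctrl libraries, while the intervals of Il10 and Nos2 overlap between the groups.

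Macrophages and dendritic cells, known for the PD-1 ligands, were followed by their markers. The 15 macrophage markers summed to 815.72, 830.01 and 301.23 FPKM. Of 9 dendritic cell markers 2 passed the filter, Itgax and Bst2, and neither differed from both AAV-ctrl libraries by 1 log2 unit. The list summed to 26.1, 27.8 and 37.7 FPKM, with Itgax its most abundant gene. Bst2 differed by 0.85 log2 units between the AAV-ctrl libraries. The defining markers Flt3, Zbtb46, Xcr1 and Clec9a were all under 1 FPKM in each library, with Xcr1 at 0.15, 0.25 and 0.23 FPKM, and no marker of either list was listed at 0. Their part in the higher ligand values was not tested.

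The genes around the pair were looked up after the values had been seen. Within 250 kb of Cd274 and Pdcd1lg2, 11 genes of the table were annotated, the pair included. Plgrkt, which encodes a plasminogen receptor, was at 12.04, 12.96 and 22.18 FPKM, a log2 difference of 0.78. It was the gene of this stretch closest to the pair in the size of its difference, and it did not reach 1 log2 unit. Plgrkt runs on the minus strand and starts in RefSeq at position 29367292, 146 bases before the Cd274 start used for the window above, and 105 bases of that window lie in Plgrkt. RefSeq also has the Cd274 gene begin at 29362107, within Plgrkt on the other strand. The libraries mark strand, but whether fragments were assigned by strand is not given in the sources used here, so fragments from the shared stretch may be divided either way. Jak2, the kinase gene on the other side of Plgrkt, was at 25.72, 23.18 and 25.67 FPKM, with the AAV-IL27 value between those of AAV-ctrl. Rcl1, beyond Jak2, was lower in AAV-IL27, at 1.11, 1.19 and 0.48 FPKM. On the other side, Ric1 and the lncRNA gene A930007I19Rik lie between Pdcd1lg2 and Ermp1, and both were above both AAV-ctrl libraries. Ric1 was at 4.46, 4.02 and 5.70 FPKM, a log2 difference of 0.36, and A930007I19Rik was at 0.02, 0.07 and 0.12 FPKM. Ermp1 was at 13.23, 13.46 and 13.06 FPKM.

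The receptor PD-1 itself (Pdcd1) was listed at 0 in all 3 libraries. Cd80, a co-stimulatory ligand that also binds PD-L1 on the same cell, was at 5.61, 5.76 and 7.27 FPKM, a log2 difference of 0.31. Cmtm6, which keeps PD-L1 protein at the cell surface, was abundant and was at 202.85, 195.74 and 185.35 FPKM. The most abundant gene of the list was Sirpa, the inhibitory receptor for CD47, at 255.76, 245.80 and 267.92 FPKM. Of 9 genes of this PD-1 and co-stimulation list that passed the filter, 0 were higher and 0 lower by 1 log2 unit, and their median log2 difference was 0.10 against -0.01 over all genes tested.

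Among the genes that carry interferon signals towards Cd274 or, as Socs1 and Socs3 do, damp them, 15 of 15 passed the filter and none differed from both AAV-ctrl libraries by 1 log2 unit. Irf1, the interferon regulatory factor that binds the Cd274 promoter, was at 84.16, 86.04 and 103.53 FPKM, a log2 difference of 0.28. It was higher in AAV-IL27 than in either AAV-ctrl library, as were 10 of the 15 genes in all, against 38.9% of all genes tested that lay above both by any amount. The most abundant gene of the list, the kinase gene Jak1, was at 122.21, 121.50 and 131.85 FPKM. The median log2 difference of the list was 0.17.

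**Figure D2:**
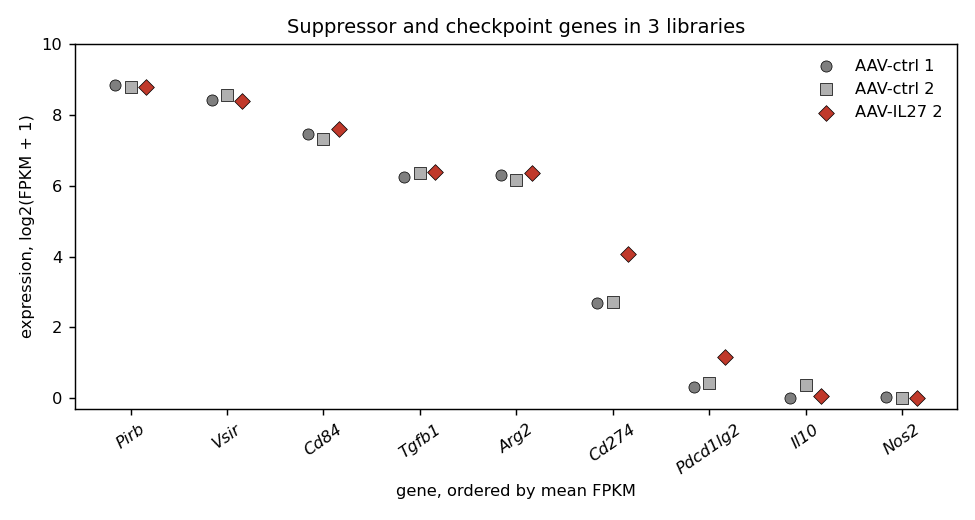
Expression as log2(FPKM + 1) (vertical axis) of the 9 members with a row, ordered by mean FPKM, with 1 point for each of AAV-ctrl 1, AAV-ctrl 2 and AAV-IL27. The AAV-IL27 point stands clear of both AAV-ctrl points for Cd274 (15.92 against 5.44 and 5.62 FPKM) and Pdcd1lg2 (1.24 against 0.25 and 0.36 FPKM) and lies close to them for Pirb, Vsir, Cd84, Tgfb1 and Arg2.

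Levels ranged from abundant receptors to transcripts at the detection limit. The order of mean levels was Pirb, Vsir, Cd84, Tgfb1, Arg2, Cd274, Pdcd1lg2, Il10 and Nos2. Tgfb1 and Arg2 changed places between the AAV-ctrl libraries and so did Il10 and Nos2, whereas the other neighbours in this order kept it within each library. Pdcd1lg2 and Il10 were close in AAV-ctrl 2, at 0.36 and 0.29 FPKM. Of the 6 members past the filter, 4 lay above both AAV-ctrl libraries by any amount, against 38.9% of all genes, and 1 lay below both, against 41.9%. The median log2 difference of these 6 was 0.10, and that of all 9130 genes was -0.01.

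Pirb encodes an inhibitory receptor that binds MHC class I and recruits the phosphatase SHP-1. The gene lies on chromosome 7 from 3711409 to 3720391 on the minus strand (GRCm38, GENCODE M21, as for all members). It was the most abundant member, at 457.69 FPKM in AAV-ctrl 1, 437.06 FPKM in AAV-ctrl 2 and 442.89 FPKM in AAV-IL27. The AAV-IL27 value lay between the AAV-ctrl values, and the log2 difference was -0.01. The transcript of Pirb is 96.9% identical to that of Pira2 over 1928 aligned bases, so single values of these genes depend on how the authors' counting divided shared fragments. Pira genes encode the activating counterparts, which signal through the adaptor encoded by Fcer1g. Summed over Pirb and 6 relatives (Pira1, Pira2, Pira6, Pira7, Pira11 and Lilra6), the level was 735.31, 701.83 and 756.05 FPKM, or 105% of the AAV-ctrl mean. The relatives without Pirb stood at 115%, and 5 of the 6 were higher in AAV-IL27 than in both AAV-ctrl libraries, against 38.9% of all genes tested. The most abundant relative, Pira2, was at 131.16, 122.66 and 143.57 FPKM. Fcer1g was at 1614.35, 1574.02 and 1634.95 FPKM, and Ptpn6, which encodes SHP-1, was at 389.44, 395.14 and 473.89 FPKM, a log2 difference of 0.27. Of 23 genes of the list of paired and other inhibitory receptors with their adaptors that passed the filter, none differed from both AAV-ctrl libraries by 1 log2 unit, and the most abundant, the adaptor gene Tyrobp, was at 2355.98, 2449.30 and 2675.36 FPKM.

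Vsir (chromosome 10, 60346851 to 60372684, plus strand) encodes VISTA, an inhibitory molecule of the B7 family. It was at 338.50 FPKM in AAV-ctrl 1, 378.34 FPKM in AAV-ctrl 2 and 332.22 FPKM in AAV-IL27. The AAV-IL27 value lay below both, by 0.03 log2 units from AAV-ctrl 1 and 0.19 from AAV-ctrl 2, and the AAV-ctrl libraries differed by 0.16. Its partner on T cells is PSGL-1, encoded by Selplg, which these cells also expressed, at 633.22, 597.28 and 596.19 FPKM. Of the 4 partner genes, 2 passed the filter and neither differed by 1 log2 unit, and Igsf11 was listed at 0 in each library.

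Cd84 (chromosome 1, 171839697 to 171890718, plus strand) encodes a receptor of the SLAM family that binds itself on neighbouring cells and has been used to mark suppressive neutrophils. It was at 175.74 FPKM in AAV-ctrl 1, 159.53 FPKM in AAV-ctrl 2 and 191.48 FPKM in AAV-IL27. The AAV-IL27 value was the highest, with a log2 difference of 0.19, of a similar size to the 0.14 between the AAV-ctrl libraries. The other SLAM genes were low. Of 10 with a row 4 passed the filter, and all 4 were below both AAV-ctrl libraries, against 41.9% of all genes, but none by 1 log2 unit from both. The median log2 difference of these 4 was -0.83. Cd48, the most abundant, was at 7.54, 8.43 and 4.08 FPKM, and the adaptor gene Sh2d1b1 was at 2.33, 2.24 and 0.84 FPKM. Sh2d1a, the adaptor of T and NK cells, was listed at 0, 0 and 0.19 FPKM. Lymphocytes are a known source of these genes, and the summed level of 10 B cell markers was 30.9, 41.4 and 5.12 FPKM in the same order, with none listed at 0, while that of 9 T and NK cell markers was 15.0, 16.1 and 14.2 FPKM. The summed markers of macrophages, and those of eosinophils, basophils and mast cells, were also lower in AAV-IL27. The part of any of these cells in the lower SLAM values was not tested.

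Arg2 (chromosome 12, 79130777 to 79156301, plus strand) encodes the mitochondrial arginase. It was at 77.80 FPKM in AAV-ctrl 1, 70.44 FPKM in AAV-ctrl 2 and 80.61 FPKM in AAV-IL27. The AAV-IL27 value was the highest, but its log2 difference of 0.12 was smaller than the 0.14 between the AAV-ctrl libraries. Nos2 (chromosome 11, 78920787 to 78960254, plus strand), whose product competes for the same arginine, was listed at 0.03, 0.01 and 0.01 FPKM, which corresponds to an estimated 2, 1 and 1 fragments. All these values are at or under the level of 3 fragments (0.038 FPKM), so a difference in Nos2 was not detectable at this depth.

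Of 13 genes of arginine and nitric oxide handling that passed the filter, among them those of tetrahydrobiopterin synthesis, 8 lay below both AAV-ctrl libraries, against 41.9% of all genes tested. Of the 13, 2 were lower by 1 log2 unit from both, against 2.32% of all genes tested, and 0 were higher, against 0.307%, and the median log2 difference was -0.22. Odc1, which encodes ornithine decarboxylase and starts polyamine synthesis from the product of arginase, was at 12.97, 12.97 and 4.88 FPKM, a log2 difference of -1.25. Qdpr, whose enzyme regenerates the tetrahydrobiopterin cofactor of nitric oxide synthases, was at 3.22, 3.08 and 0.98 FPKM, a log2 difference of -1.07. The arginine transporter genes Slc7a1 and Slc7a2 did not pass the filter, and Slc7a2 was at 0.53, 0.49 and 0.07 FPKM. Ass1, which rebuilds arginine from citrulline, was at 0.83, 1.99 and 1.63 FPKM, and the AAV-ctrl libraries differed more from each other than from AAV-IL27. The most abundant gene of the list, the antizyme inhibitor Azin1, was at 44.80, 38.92 and 38.53 FPKM. The summed level of 12 erythroid markers was 20512, 13854 and 2357 FPKM in the same order, with none listed at 0, and that of macrophage markers is given above. The part of these cells in the lower Odc1 and Qdpr values was not tested.

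Tgfb1 (chromosome 7, 25687002 to 25705077, plus strand) encodes TGF-beta 1, which is secreted in a latent form. It was at 74.61 FPKM in AAV-ctrl 1, 80.31 FPKM in AAV-ctrl 2 and 82.24 FPKM in AAV-IL27. The AAV-IL27 value exceeded that of AAV-ctrl 2 by 0.03 log2 units, less than the 0.10 between the AAV-ctrl libraries. Platelets are a known source of Tgfb1, and the summed level of 9 megakaryocyte and platelet markers was 79.0, 88.6 and 32.8 FPKM, with Gp6 listed at 0 in AAV-IL27. Their part in Tgfb1 was not tested. Nrros, whose product holds latent TGF-beta on myeloid cells, was at 45.25, 42.33 and 51.79 FPKM, while Ltbp1, the holder used by stromal cells, was at 0.12, 0.15 and 0.02 FPKM. Of the receptor genes, Tgfbr1 was above and Tgfbr2 below both AAV-ctrl libraries, with Tgfbr1 at 14.65, 13.43 and 22.83 FPKM and Tgfbr2 at 35.79, 36.12 and 31.81 FPKM. Of 14 genes of the TGF-beta list that passed the filter, 1 was higher by 1 log2 unit, against 0.307% of all genes tested, and 0 were lower, against 2.32%. By any amount, 12 of the 14 lay above both AAV-ctrl libraries, against 38.9% of all genes, and 2 below both, against 41.9%. The higher gene was Tgif1, a repressor of TGF-beta target genes, at 4.14, 2.96 and 10.39 FPKM, a log2 difference of 1.34. The most abundant, Thbs1, which encodes the TGF-beta activator thrombospondin 1, was at 82.22, 76.00 and 109.65 FPKM, and the median log2 difference of the list was 0.24.

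Il10 (chromosome 1, 131019845 to 131024974, plus strand) encodes IL-10, which restrains macrophages and dendritic cells. It was listed at 0 in AAV-ctrl 1, at 0.29 FPKM in AAV-ctrl 2 and at 0.04 FPKM in AAV-IL27. These are an estimated 0, 7 and 1 fragments, and the 95% Poisson interval of the 0 in AAV-ctrl 1 reaches 3.7 fragments, or 0.154 FPKM. The AAV-ctrl values lay on both sides of the AAV-IL27 value, so no difference was detectable at this depth. The receptor genes were expressed, with Il10ra at 8.58, 8.50 and 9.78 FPKM and Il10rb at 76.98, 71.69 and 79.01 FPKM. Of 10 genes of the IL-10 receptor and response list, all past the filter, 1 was lower by 1 log2 unit, against 2.32% of all genes tested, and 0 were higher, against 0.307%. By any amount, 6 of the 10 lay above both AAV-ctrl libraries, against 38.9% of all genes tested, and 3 below both, against 41.9%. The median log2 difference of the list was 0.10. The lower gene was Maf, a transcription factor that drives Il10 and is also abundant in resident macrophages, at 5.68, 4.98 and 1.74 FPKM, a log2 difference of -1.21. The most abundant, Zfp36, which encodes an mRNA-decay factor, was at 864.34, 893.36 and 1023.15 FPKM.

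**Figure D3:**
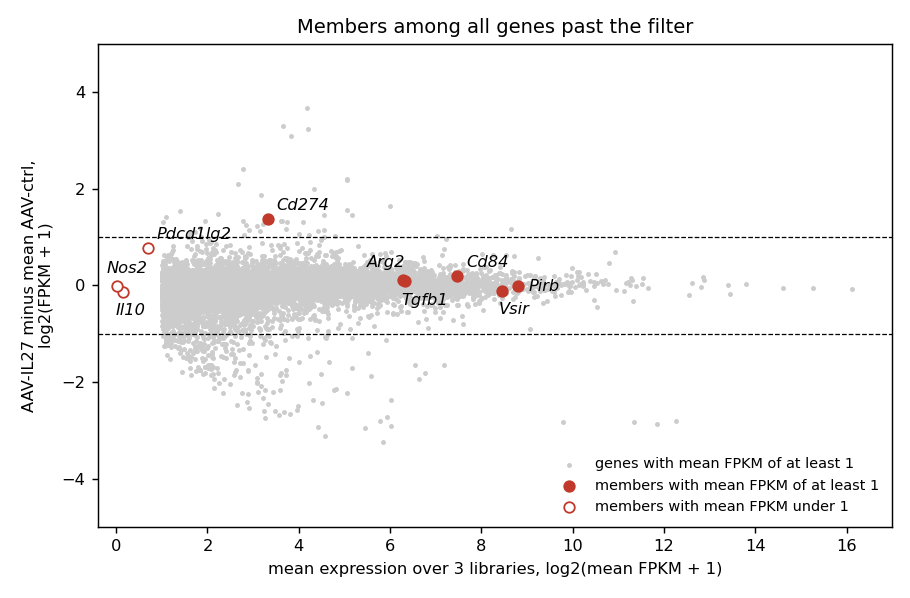
Log2 difference of AAV-IL27 from the AAV-ctrl mean (vertical axis) against log2(mean FPKM + 1) over the 3 libraries (horizontal axis) for the 9130 genes with a mean of at least 1 FPKM (grey), members past the filter (filled red) and members under it (open red), with dashed lines at 1 log2 unit. Cd274 (1.37) lies above the upper line, Pdcd1lg2 (0.78) lies below it, and the other members lie near 0.

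Of 16 further genes for suppressor enzymes and mediators that passed the filter, 2 were lower by 1 log2 unit, against 2.32% of all genes tested, and 0 were higher, against 0.307%. By any amount, 9 of the 16 lay above both AAV-ctrl libraries, against 38.9% of all genes tested, and 5 below both, against 41.9%. Their median log2 difference was 0.16. Hmox1, which encodes the heme-degrading enzyme heme oxygenase 1, was at 207.37, 164.46 and 57.86 FPKM, a log2 difference of -1.66. Wfdc17, a gene reported in suppressive neutrophils and expressed by macrophages, was at 75.05, 48.99 and 15.76 FPKM, a log2 difference of -1.88, and differed by 0.61 between the AAV-ctrl libraries. The most abundant gene of the list, Lgals3 (galectin-3), was at 540.24, 528.09 and 496.13 FPKM. The macrophage and erythroid markers given above were lower in the same library, and their part in these values was not tested.

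**Figure D4:**
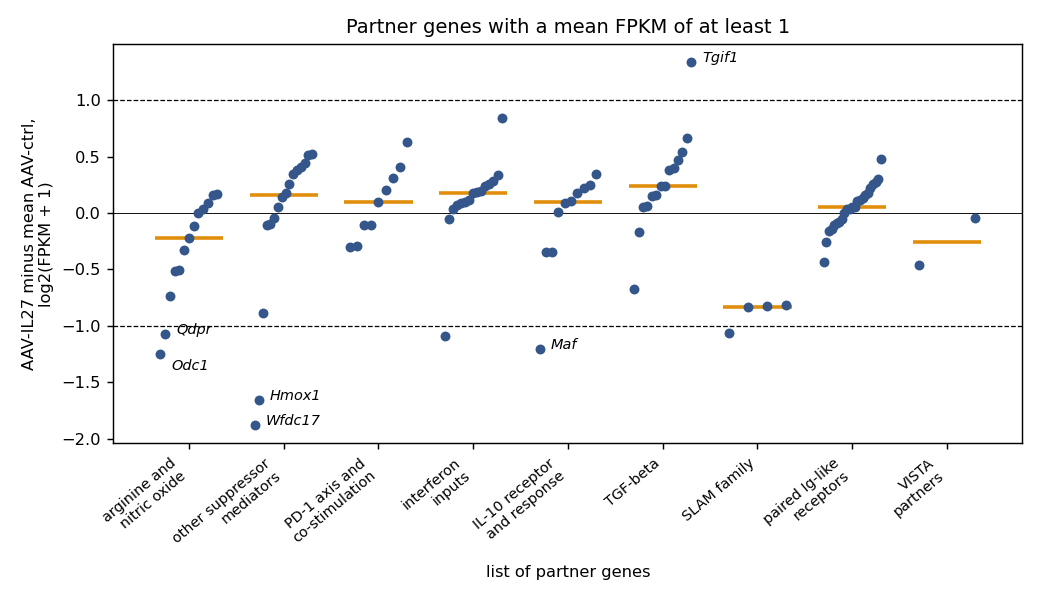
Log2 difference of AAV-IL27 from the AAV-ctrl mean (vertical axis) for each partner gene with a mean of at least 1 FPKM, grouped by list, with an orange bar at the list median and dashed lines at 1 log2 unit. Genes named in the plot passed the threshold of 1 log2 unit against each AAV-ctrl library: Odc1, Qdpr, Hmox1, Wfdc17 and Maf were lower and Tgif1 was higher.

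For each member past the filter, the gene with the most similar values was sought among the 9130 genes, by the largest distance over the 3 libraries after centring log2(FPKM + 1) on the AAV-ctrl mean. For Cd274 it was Bcl2a1b, a survival gene of the Bcl-2 family with near-identical copies whose fragments may be shared, at 6.83, 7.34 and 19.51 FPKM, with a largest distance of 0.03 log2 units. Within 0.1 log2 units of Cd274 there were 7 genes. For Cd84, Arg2, Tgfb1, Pirb and Vsir, from 1604 to 2970 genes lay within 0.1, and the closest were Syncrip, Rbm39, Mlycd, Reck and Zfp7. With 3 libraries such likeness is a description of these values only.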

How the data were processed

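Bone marrow Ly6G+ cells of AAV-ctrl (2 libraries) and AAV-IL27 (1 library) mice were analysed. Per the labels, RNA was extracted with Trizol, mRNA was selected with oligo-dT, the second cDNA strand was marked with dUTP, and libraries were sequenced on a DNBSEQ platform. The authors deposited FPKM values to 2 decimals for 16073 rows, of which 1 without a symbol was left out. The submitters' processing notes name mm10. The aligner, the counting tool and how genes were selected for the table are not given in the sources used here. Further columns of per-sample values that no sample label matched numbered 1 and stayed out of every step.

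Values were compared as log2(FPKM + 1), the pseudocount being 1, among genes with a mean of at least 1 FPKM. No test was run, since AAV-IL27 has 1 library. The depth of each library was estimated from whole-fragment steps in 223 to 245 low FPKM values, using single-transcript genes of GENCODE M21 (10768 genes, 70 bases subtracted from each length), of which 66.4% to 73.5% fell within 0.1 of a whole number, so numbers of fragments are estimates, unfit for a count test. For genes with several transcripts the longest was used. Poisson intervals are exact, at the 95% level, and leave out all error but that of counting. Sequences and gene neighbours came from RefSeq (GRCm38.p6), and transcripts were aligned with BLAST 2.17.0. List symbols not found in the table were looked up through RefSeq gene numbers and synonyms.

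The members and gene lists were chosen with earlier results of these data known. Named genes are all members, list genes past the fold threshold, direct partners of members (1 of which is not reported here), the most abundant gene of each list and the gene most similar to each member. Genes around Cd274 and those under other observations were chosen after their values were seen. Alternatives were other pseudocounts, filters, thresholds and scalings and leaving out each AAV-ctrl library. On simulated data for the AAV-IL27 comparison (9130 genes), 200 of 200 genes changed 4-fold and 0 of 8930 unchanged genes were called, and depth was recovered to within 0.465%. The simulated noise was small against the threshold, and the changed genes were drawn only from genes well above the filter. These counts therefore check that the steps run and give no error rate for the real calls. Between the real AAV-ctrl libraries, the 99th percentile of the absolute difference was 0.571 log2 units. Scripts ran in Python 3.11.15 with pandas 2.3.3, scipy 1.17.1, matplotlib 3.10.9 and numpy 2.4.6.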

Additional observations from a re-analysis of the deposited data

How the results depend on the processing

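Among members past the filter of each alternative, Cd274 was the only 1 higher by the threshold, and none was lower, under each of the 9 alternatives. Pdcd1lg2 lay above AAV-ctrl 1 by 0.84 and above AAV-ctrl 2 by 0.72 log2 units. Under the threshold of 0.5 log2 units and with smaller pseudocounts it was past the threshold, and only the filter kept it out of the count. The log2 difference of Cd274 ranged from 1.35 to 1.52. That of Pdcd1lg2 ranged from 0.72 to 2.01 (1.74 with a pseudocount of 0.1 and 2.01 with 0.01, which widen differences of low genes by construction). With equal FPKM totals the difference of Pdcd1lg2 was 1.06. That scaling raised the values, so the pseudocount of 1 weighed less, which also widens differences of low genes. With libraries scaled by their median ratio, the difference of Pdcd1lg2 was 0.78. Pirb, near 0, ranged from -0.05 to 0.03. Il10 ranged from -0.50, with a pseudocount of 0.1, to 0.06 without AAV-ctrl 2, when the only control left was AAV-ctrl 1, listed at 0 FPKM. Of 54 member values over 6 alternatives, 45 moved by less than 1 SD between controls and 9 by more. Among the 9, 3 were of Cd274, 3 of Pdcd1lg2, 2 of Nos2 and 1 of Il10, and Cd274 kept its sign. Where an AAV-ctrl library was left out, no value could move by more than 1 SD, by construction. The 45 therefore include values whose outcome was fixed in advance.

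The members' median of 0.10 was 0.163 with equal totals, a scaling under which 10017 genes passed the filter, Pdcd1lg2 among them. That median therefore covers other members as well as another scaling. The members' median was 0.0863 without a filter, which adds 3 low members, and ranged from 0.0868 to 0.113 when either AAV-ctrl library was left out. Over all genes, the count of lower genes (212) was 396 and 425 with pseudocounts of 0.1 and 0.01, 93 at a mean of at least 5 FPKM and 640 when 0.5 log2 units sufficed. Higher genes (28) numbered 46 with a pseudocount of 0.01 and 143 when 0.5 log2 units sufficed, and ranged from 40 to 50 without AAV-ctrl 1 or AAV-ctrl 2, when the threshold applies to the remaining library alone. Equal totals moved the median of all genes by 0.03. With the shortest transcript in place of the longest, only Cd84 changed in estimated fragments beyond its interval, to 4860, 4435 and 5241.

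No paired analysis was possible because AAV-IL27 had 1 library. Spread among AAV-IL27 mice was not measured here, and depth leaves differences in Il10 and Nos2 undetectable.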

Other observations

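Genes described here were picked with their values in view and have no test. Enzymes that turn extracellular ATP into adenosine, a known inhibitor of T cells, were both higher in the AAV-IL27 library. Entpd1 (CD39) was at 66.62, 59.28 and 90.78 FPKM, a log2 difference of 0.52. Nt5e (CD73) was at 23.19, 21.67 and 30 FPKM, a log2 difference of 0.40. Ptgs2, which encodes the prostaglandin-forming enzyme COX-2, was at 7.64, 6.91 and 10.80 FPKM, a log2 difference of 0.51. None of these reached 1 log2 unit.

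The feedback inhibitors of JAK and STAT signalling differed in direction. Socs1 was at 3.35, 3.55 and 6.97 FPKM, a log2 difference of 0.84. Socs3 was at 49.23, 35.52 and 19.14 FPKM, a log2 difference of -1.09, with 0.46 between the AAV-ctrl libraries. It did not lie 1 log2 unit below each AAV-ctrl library and so was not counted as lower. Among checkpoint receptors of low level, Havcr2 (TIM-3) was at 0.82, 0.68 and 1.70 FPKM, and the co-stimulatory ligand gene Icosl was at 40.17, 39.91 and 53.49 FPKM.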
